A study of Mus musculus with 6 samples.

Results

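Motile cilia beat because pairs of microtubules in their core, the axoneme, slide against each other, driven by dynein motors and held in register by radial spokes, nexin links and a central microtubule pair. *Foxj1* encodes the forkhead transcription factor that switches on the genes of motile cilia in mouse and human airway, ependyma and node, and RFX factors act with it on X-box sites in ciliary promoters. The cochlea has no multiciliated cells, but each developing hair cell (HC) carries a single kinocilium, a true cilium with an axoneme, beside its stereocilia bundle. Described here are 39 genes of this program on 6 arrays. They were taken by name, as 8 transcription factors and regulators of multiciliation, and 31 genes of the axoneme, its assembly and ciliated cells. All 39 were measured, among 20259 genes that have a transcript cluster (a group of probes) tied by the array annotation to 1 gene. Where clusters were several, the brightest stood for the gene. *Wdr16* appears under its current symbol *Cfap52*.

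Cochlear explants, of wild type mice by the labels, were taken at E15.5, when HCs and the supporting cells around them start to differentiate, and kept in culture with the γ-secretase inhibitor DAPT, which blocks Notch receptor cleavage, or with the vehicle DMSO alone. In each of 3 experiments 1 pool of explants received 3.33 µM DAPT and 1 pool 0.013% DMSO in medium with EGF and FGF. The methods give mice of both sexes on a mixed C57BL/6 and CD-1 background and name P27/GFP transgenic embryos for explants. Culture lasted 23, 19 and 24 hours in experiments 1, 2 and 3 by the sample labels, which are followed here, while the design text and the study's text give other times. Several explants were pooled per array, the epithelium was freed with enzymes, and RNA was hybridized to Mouse Exon 1.0 ST arrays. The deposited values are log2 signals, so a difference of 1 is a doubling, and differences are given as DAPT minus control within an experiment. No detection call was used. The mean signal of 30 of the 39 members lay below 7.78, the median over all genes, and signals near background are known to understate differences on such arrays. On these arrays 9 genes of the cochlear epithelium had mean signals from 8.66 to 13.24, all above that median, among them *Epcam*, *Emx2*, *Pax2* and *Tecta*.

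DAPT-treated pools had a higher *Foxj1* signal than their control pools in all 3 experiments, and several axonemal genes were higher with it. The other 7 regulators, among them the RFX factors, had mean differences from −0.04 to 0.11. Of the 39 members, 10 had an unadjusted p under 0.05 in limma, which fitted a linear model with a term for each experiment, and all 10 were higher with DAPT. No member was lower at that level, and none passed after Benjamini-Hochberg adjustment. At the same level 5.27% of all 20259 genes stood on the higher side and 2.59% on the lower. After adjustment 0.0% of genes passed, the lowest adjusted p being 0.0591. In all 3 experiments 18 of the 39 members were higher and 0 lower with DAPT, beside 19.1% and 10.5% of all genes. The median difference was 0.11 over the members and 0.02 over all genes, and leaving out 1 experiment moved the former to 0.06 (without experiment 3) or 0.22 (without experiment 1). *Foxj1* and *Fam183b* stand in the study's own list of higher genes from these arrays, and of the 37 remaining members 8 had an unadjusted p under 0.05, all higher. In bulk RNA, more cells of a type and more RNA per cell cannot be told apart.

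**Figure D1:**
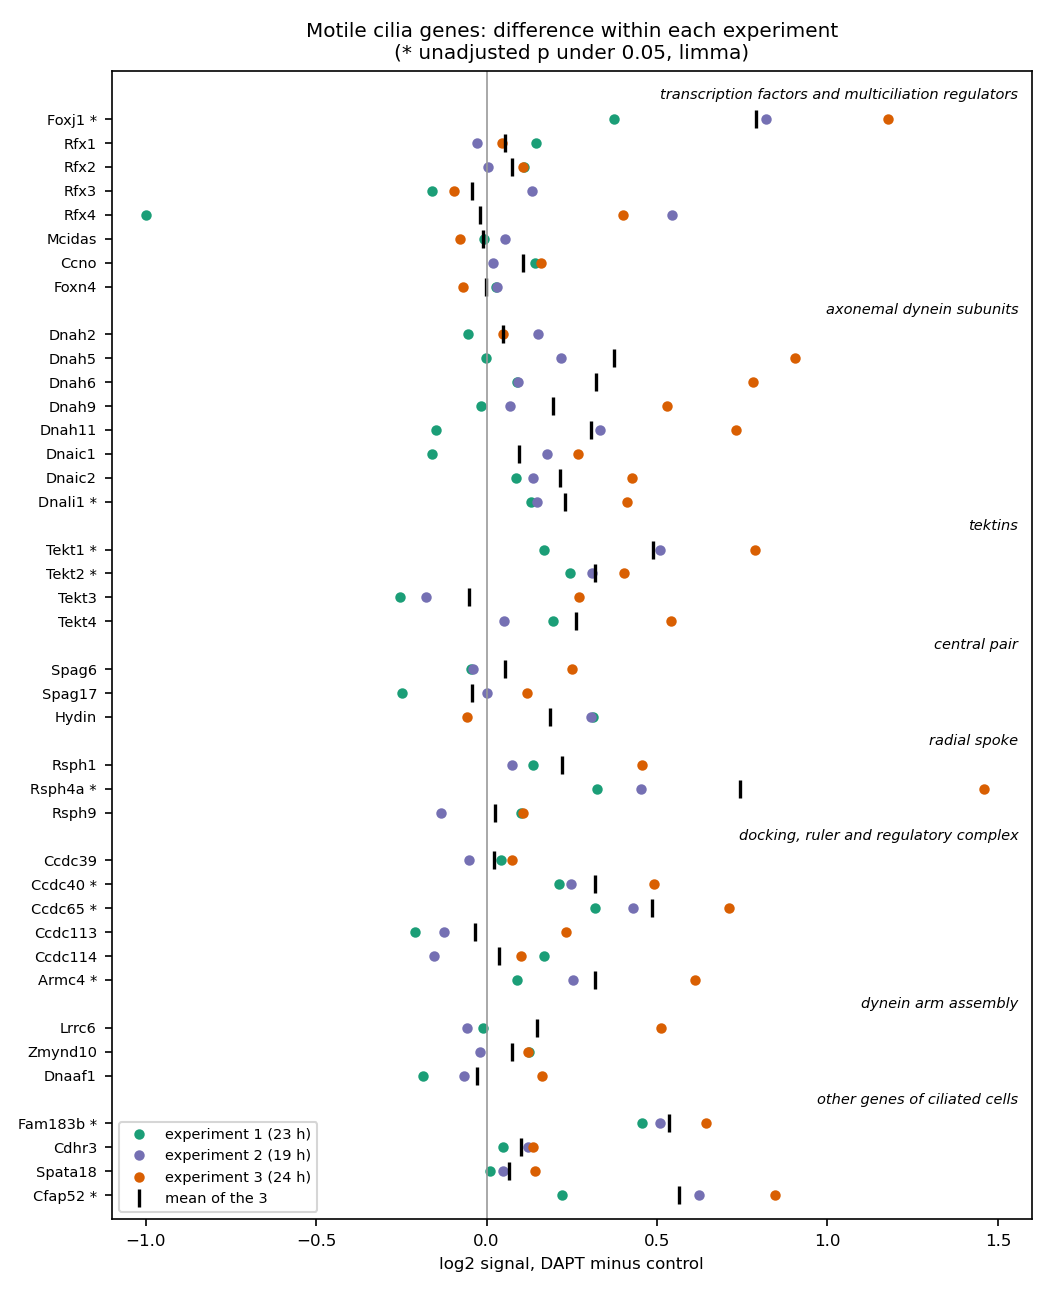
Difference in log2 signal between the DAPT and the control array of each experiment (colored points) and the mean of the 3 (black bars) for the 39 members, grouped by role. Asterisks mark the 10 members with an unadjusted p under 0.05 in limma. Of the 31 members outside the regulators 20, 21 and 30 lie above 0 in experiments 1, 2 and 3, beside 55.3%, 52.6% and 56.0% of all genes.

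Promoter letters are shown for 4 of the members with the lowest p, since X-box half-sites are where RFX factors are known to bind in genes of this program. The RefSeq table of promoters for GRCm38.p6 held 33 of the 39 members. Promoters of *Foxj1*, *Rsph4a* and *Armc4* were not analysed here. In the 250 bases before the start of the first promoter of each gene, 3 motifs were searched on both strands. They were the X-box half-site GTTGCC, the forkhead core TAAACA and the core TGGGAA that RBPJ, the DNA-binding partner of Notch, recognizes. The 250 bases of each promoter follow on the strand of the gene, 5′ to 3′, with any of the 3 motifs in capitals. Starts are those of the promoter table, and the RefSeq genes *Fam183b* and *Cfap52* extend upstream of them, so the window of *Fam183b* lies within the annotated gene and that of *Cfap52* overlaps its end.
Fam183b, chr11:58801961-58802210, minus strand: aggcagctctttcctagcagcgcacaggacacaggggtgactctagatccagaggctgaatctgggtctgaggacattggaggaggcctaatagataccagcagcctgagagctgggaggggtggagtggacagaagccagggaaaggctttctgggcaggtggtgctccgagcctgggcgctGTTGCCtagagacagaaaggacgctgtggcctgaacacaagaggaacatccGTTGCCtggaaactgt
Ccdc65, chr15:98707944-98708193, plus strand: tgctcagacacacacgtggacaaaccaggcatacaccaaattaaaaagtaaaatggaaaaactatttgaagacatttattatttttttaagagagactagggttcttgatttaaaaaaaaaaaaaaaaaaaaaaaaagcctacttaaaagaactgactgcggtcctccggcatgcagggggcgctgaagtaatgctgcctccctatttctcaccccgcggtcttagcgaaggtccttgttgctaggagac
Cfap52, chr11:67965643-67965892, minus strand: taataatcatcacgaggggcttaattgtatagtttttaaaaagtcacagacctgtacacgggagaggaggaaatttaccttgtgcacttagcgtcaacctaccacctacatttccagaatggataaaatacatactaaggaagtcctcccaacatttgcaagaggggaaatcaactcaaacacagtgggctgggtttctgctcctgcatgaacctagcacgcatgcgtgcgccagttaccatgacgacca
Tekt2, chr4:126325689-126325938, minus strand: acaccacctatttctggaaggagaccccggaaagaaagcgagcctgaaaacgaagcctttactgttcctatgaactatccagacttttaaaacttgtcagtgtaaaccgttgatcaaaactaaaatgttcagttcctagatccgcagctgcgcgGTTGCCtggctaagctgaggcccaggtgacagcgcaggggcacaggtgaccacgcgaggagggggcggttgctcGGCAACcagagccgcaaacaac

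*Fam183b* holds the half-site 67 and 16 bases before the start used, both on the strand of the gene. In *Tekt2* the matches begin 96 bases before the start on the strand of the gene and 22 bases before it on the opposite strand. *Tekt1*, not printed, has matches 35 and 15 bases before its start. *Ccdc65* and *Cfap52* have none of the 3 motifs in these windows, which says only that these letters are not there. Over the members with a window, 11 of 33 (33.3%) held an X-box half-site, where 10.5% of the 27025 genes of the table did. Among members with an unadjusted p under 0.05 it was 3 of 7, and among the others 8 of 26. The forkhead core was found in 7 of 33 members (21.2%) and 12% of all genes, and in 0 of the 7. The RBPJ core was found in 6 of 33 members (18.2%) and 21.5% of all genes, and in 0 of the 7 as well. A match in these letters is a description and not a binding site.

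*Foxj1*, the forkhead factor of motile cilia, had a log2 signal of 8.74, 8.29 and 8.50 on the control arrays of experiments 1, 2 and 3, and of 9.12, 9.11 and 9.68 on the DAPT arrays. Every DAPT array lay above every control array, and the pair of experiment 3 stood farthest apart. The mean went from 8.51 ± 0.23 (SD, n = 3) to 9.30 ± 0.33 (SD, n = 3), a difference of 0.79 on the log2 scale or 1.73-fold (standard error 0.15, unadjusted p = 0.00237, adjusted p = 0.318 from limma), and its 95% confidence interval ran from 0.41 to 1.17. In a plain paired comparison, which does not pool variances over genes, its unadjusted p was above 0.05. Within experiments the differences were 0.37, 0.82 and 1.18. The study selected *Foxj1* on these arrays, so its direction is not independent evidence.

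RFX factors bind X-boxes and regulate the genes of both motile and primary cilia. *Rfx1* had log2 signals of 9.07, 8.95 and 8.78 in control and 9.22, 8.92 and 8.82 in DAPT pools. The signals of *Rfx2*, which acts in spermatogenesis in mouse, were 8.12, 8.04 and 7.90 in control and 8.23, 8.04 and 8.01 in DAPT pools. *Rfx3*, required for nodal and ependymal cilia in mouse, had 7.42, 7.18 and 7.20 in control and 7.26, 7.32 and 7.11 in DAPT pools. The groups overlapped for all 3 genes, and the differences were 0.05 (95% confidence interval −0.14 to 0.24), 0.07 (−0.11 to 0.26) and −0.04 (−0.26 to 0.18) in limma. *Rfx4*, which acts in the developing brain, had 6.67, 5.82 and 5.85 in control and 5.68, 6.37 and 6.25 in DAPT pools. It was lower with DAPT in experiment 1 and higher in the other two, by −0.999, 0.54 and 0.40, where the control array of experiment 1 was the highest and its DAPT array the lowest of the 6. The interval of its mean difference, −0.75 to 0.72, was wide, and without experiment 1 the difference was 0.47 (unadjusted p = 0.00385 in limma on 2 pairs). The second cluster of *Rfx4* had 0.05.

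The remaining regulators belong to multiciliation. *Mcidas*, whose protein acts with E2F factors to start the multiciliated cell program, had log2 signals of 8.49, 8.44 and 8.44 in control and 8.48, 8.49 and 8.36 in DAPT pools. *Ccno*, which takes part in centriole amplification in multiciliated cells, had 7.19, 7.22 and 7.05 in control and 7.33, 7.24 and 7.21 in DAPT pools. *Foxn4*, a forkhead gene that acts in multiciliated cells of *Xenopus*, had 7.90, 7.91 and 7.90 in control and 7.92, 7.94 and 7.83 in DAPT pools. The groups overlapped for each, with differences of −0.01 (95% confidence interval −0.20 to 0.17), 0.11 (−0.08 to 0.29) and −0.0028 (−0.18 to 0.18). *Ccno* was higher with DAPT in each experiment, by 0.14, 0.02 and 0.16, with an unadjusted p of 0.208 in limma. Over the 7 regulators other than *Foxj1*, 0 had an unadjusted p under 0.05 and the median difference was −0.0028, beside 0.02 over all genes.

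Axonemal dyneins are the motors of the beat. All 8 dynein members had a mean difference above 0, from 0.05 to 0.37, and 1 of the 8 had an unadjusted p under 0.05 in limma, beside 5.27% of all genes. *Dnali1*, which encodes a light intermediate chain of inner dynein arms, had log2 signals of 6.92, 6.57 and 6.79 in control and 7.05, 6.72 and 7.21 in DAPT pools. Each DAPT array was above its own control array, though the DAPT array of experiment 2 lay below 2 of the control arrays. The difference was 0.23 (standard error 0.09, unadjusted p = 0.0422, adjusted p = 0.612 from limma).

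The dynein heavy chain genes other than *Dnah2* had their highest difference in experiment 3. *Dnah5*, an outer arm heavy chain gene, had 6.17, 6.05 and 6.35 in control and 6.17, 6.27 and 7.26 in DAPT pools, with differences of −0.0023, 0.22 and 0.90 in experiments 1, 2 and 3. *Dnah9* and *Dnah11*, which encode further outer arm heavy chains, had differences of −0.02, 0.07 and 0.53 for *Dnah9* and −0.15, 0.33 and 0.73 for *Dnah11*. *Dnah6*, an inner arm heavy chain gene, had 7.65, 6.87 and 6.63 in control and 7.74, 6.97 and 7.41 in DAPT pools, with differences of 0.09, 0.09 and 0.78. For none of the 4 did the DAPT arrays lie wholly above the control arrays. *Dnah11* and *Dnah6* were high on both arrays of experiment 1, where the *Dnah11* control signal was 7.30 against 6.14 and 6.47 in the other controls. The intermediate chain gene *Dnaic2* had 7.25, 7.33 and 7.32 in control and 7.34, 7.47 and 7.74 in DAPT pools, groups that did not overlap, with a difference of 0.22 (unadjusted p = 0.0635 from limma). A second, dimmer cluster of *Dnaic2* had −0.35, so its direction depends on the cluster. *Dnaic1*, its partner in the outer arm, had 0.10, and *Dnah2*, an inner arm gene with 7.22, 7.06 and 7.20 in control and 7.17, 7.21 and 7.25 in DAPT pools, had 0.05.

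Tektins are filament proteins inside the doublet microtubules. *Tekt1* had log2 signals of 7.37, 6.90 and 7.16 in control and 7.54, 7.41 and 7.94 in DAPT pools. For *Tekt2* they were 8.20, 8.01 and 8.24 in control and 8.45, 8.32 and 8.65 in DAPT pools. For both genes all DAPT arrays lay above all control arrays. The differences were 0.49 (standard error 0.13, unadjusted p = 0.009, adjusted p = 0.397 from limma) and 0.32 (standard error 0.08, unadjusted p = 0.0062, adjusted p = 0.363 from limma). *Tekt4* was higher in each experiment, by 0.20, 0.05 and 0.54, with an unadjusted p of 0.0576 from limma. *Tekt3*, which had the lowest mean difference of all members at −0.05, was lower with DAPT in experiments 1 and 2 and higher in experiment 3, by −0.25, −0.18 and 0.27.

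Radial spokes pass signals from the central pair to the dynein arms, and *Rsph1*, *Rsph4a* and *Rsph9* encode proteins of the spoke head. *Rsph4a* had log2 signals of 7.29, 6.09 and 6.19 in control and 7.62, 6.54 and 7.65 in DAPT pools. Both arrays of experiment 1 were high, so the groups overlapped, while within experiments the differences were 0.32, 0.45 and 1.46. The mean difference was 0.74 (standard error 0.22, unadjusted p = 0.0163, adjusted p = 0.469 from limma), and it was 0.39 without experiment 3. *Rsph1* was higher in each experiment, with a mean difference of 0.22 (unadjusted p = 0.0685 from limma). *Rsph9* had 7.21, 7.53 and 7.32 in control and 7.32, 7.40 and 7.43 in DAPT pools, which overlapped, and a difference of 0.02 (95% confidence interval −0.18 to 0.23). The central pair genes *Spag6*, *Spag17* and *Hydin* had 0.06, −0.04 and 0.19, and none was higher in all 3 experiments. *Spag6* is here the gene on chromosome 2, and its relative *Spag6l* was not analysed.

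**Figure D2:**
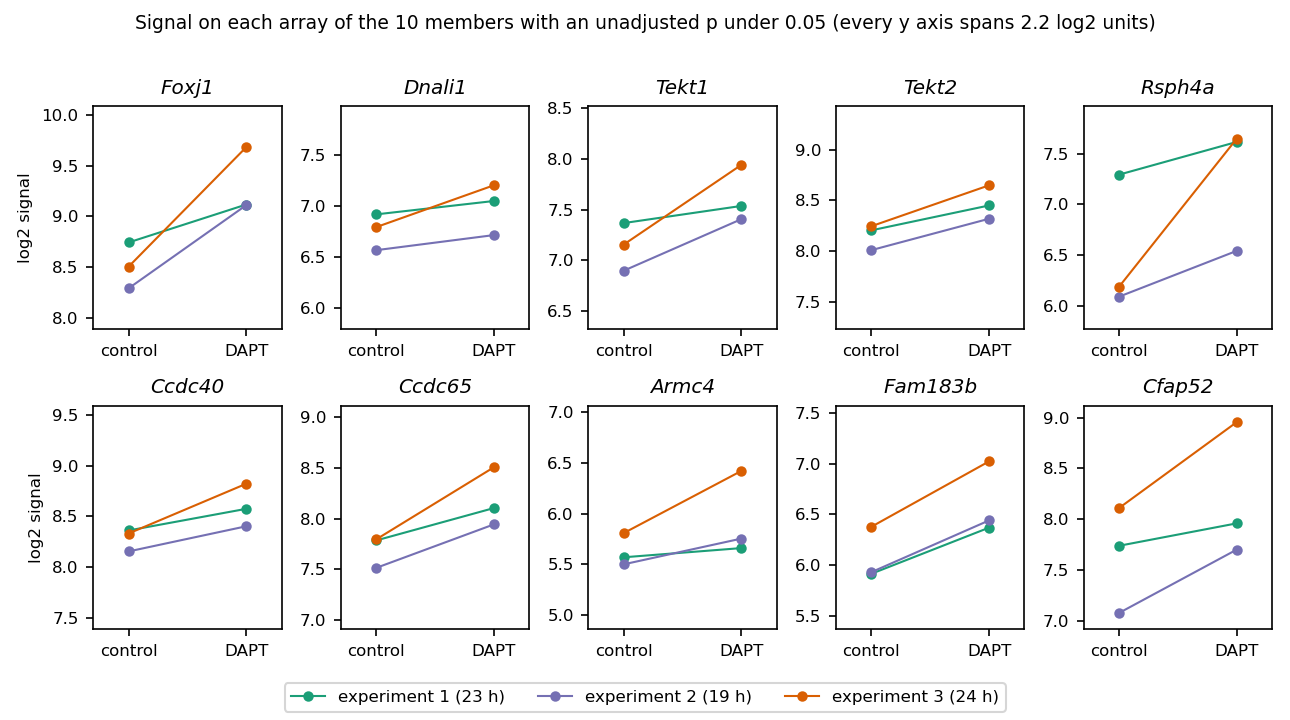
Log2 signal on the control and DAPT array of each experiment, joined by lines, for the 10 members with an unadjusted p under 0.05 in limma. All 30 lines slope upward, but the 10 members were picked by p from these same pairs, so this is not independent evidence. For *Rsph4a* the control array of experiment 1 (7.29) lies above the DAPT array of experiment 2 (6.54).

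Among the genes that place and regulate the dynein arms, *Ccdc65*, of the nexin-dynein regulatory complex, had log2 signals of 7.79, 7.51 and 7.80 in control and 8.10, 7.94 and 8.51 in DAPT pools. *Ccdc40*, which with *Ccdc39* forms the molecular ruler of the axoneme, had 8.36, 8.15 and 8.33 in control and 8.57, 8.40 and 8.82 in DAPT pools. *Armc4*, an outer arm docking gene, had 5.57, 5.50 and 5.81 in control and 5.66, 5.75 and 6.42 in DAPT pools. The groups did not overlap for *Ccdc65* and *Ccdc40*, and for *Armc4* only the DAPT array of experiment 3 lay above all controls. The differences were 0.49 (standard error 0.10, unadjusted p = 0.00292, adjusted p = 0.33 from limma) for *Ccdc65* and 0.32 (standard error 0.09, unadjusted p = 0.0118, adjusted p = 0.423 from limma) for *Ccdc40*. For *Armc4* the difference was 0.32 (standard error 0.12, unadjusted p = 0.0336, adjusted p = 0.574 from limma). *Ccdc39*, the partner of *Ccdc40*, had 0.02 (95% confidence interval −0.16 to 0.21), an interval that overlapped that of *Ccdc40*, 0.10 to 0.53, and the difference between the 2 genes was not tested. *Ccdc114*, another docking gene, had 7.53, 7.93 and 7.78 in control and 7.69, 7.78 and 7.88 in DAPT pools. Its difference was 0.04, while a second, dimmer cluster of it had 0.29. *Ccdc113* had −0.03.

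Dynein arms are built in the cytoplasm by assembly factors before they enter the cilium. *Dnaaf1*, *Lrrc6* and *Zmynd10*, which encode 3 of these factors, had differences of −0.03, 0.15 and 0.07. *Dnaaf1* had log2 signals of 7.38, 7.26 and 7.51 in control and 7.20, 7.20 and 7.67 in DAPT pools, with the groups overlapping. In experiment 2 none of the 3 genes was higher and in experiment 3 all 3 were, beside 52.6% and 56.0% of all genes. *Lrrc6* had 0.51 in experiment 3.

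*Fam183b* had the lowest p of the members. Its log2 signals were 5.91, 5.93 and 6.38 in control and 6.37, 6.44 and 7.02 in DAPT pools. The DAPT arrays of experiments 1 and 2 lay next to the control array of experiment 3, so the groups overlapped, yet the differences within experiments were alike at 0.45, 0.51 and 0.64. The mean difference was 0.54 or 1.45-fold (standard error 0.08, unadjusted p = 0.000558, adjusted p = 0.203 from limma), and a second, dimmer cluster had 0.42. The study selected this gene on these arrays too. *Cfap52*, a WD repeat gene of the axoneme, had 7.74, 7.08 and 8.11 in control and 7.96, 7.70 and 8.96 in DAPT pools, again with overlap between the groups and with each DAPT array above its own control. Its difference was 0.56 (standard error 0.13, unadjusted p = 0.00507, adjusted p = 0.363 from limma). *Cdhr3*, a cadherin-related gene of human airway ciliated cells, and *Spata18* were higher in each experiment by small amounts, with means of 0.10 and 0.07, and neither had an unadjusted p under 0.05. Counted over all members, the 3 DAPT arrays lay above the 3 control arrays for 7 of the 39, beside 4.94% of all genes.

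The regulators and the structural genes can be set side by side. Of the 15 dynein, radial spoke and tektin genes, 4 had an unadjusted p under 0.05, all higher, 8 were higher in all 3 experiments, and the median difference was 0.23. Of the 8 regulators the first count was 1, *Foxj1*, the second was 3, and the median was 0.03. Over all genes 5.27% were higher by the first count and 19.1% by the second, and the median was 0.02. The sets were chosen with results known, and the difference between them was not tested.

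The size of the difference varied by experiment. Of the 39 members 25 were higher with DAPT in experiment 1, 28 in experiment 2 and 35 in experiment 3, beside 55.3%, 52.6% and 56.0% of all genes. The median difference over the members was 0.09, 0.09 and 0.27 in turn, and 0.02, 0.01 and 0.03 over all genes. In 29 of the 39 members the difference was highest in experiment 3, beside 35.7% of all genes, and so it was in 14 of the 15 dynein, radial spoke and tektin genes. Culture lasted 23, 19 and 24 hours in experiments 1, 2 and 3. Culture time and experiment cannot be told apart. Without experiment 3, 8 members had an unadjusted p under 0.05, all higher, beside 3.55% of all genes, and *Dnali1*, *Ccdc40* and *Armc4* no longer did. Without experiment 1 the count was 15, beside 6.71% of all genes, and without experiment 2 it was 9, beside 3.49%.

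**Figure D3:**
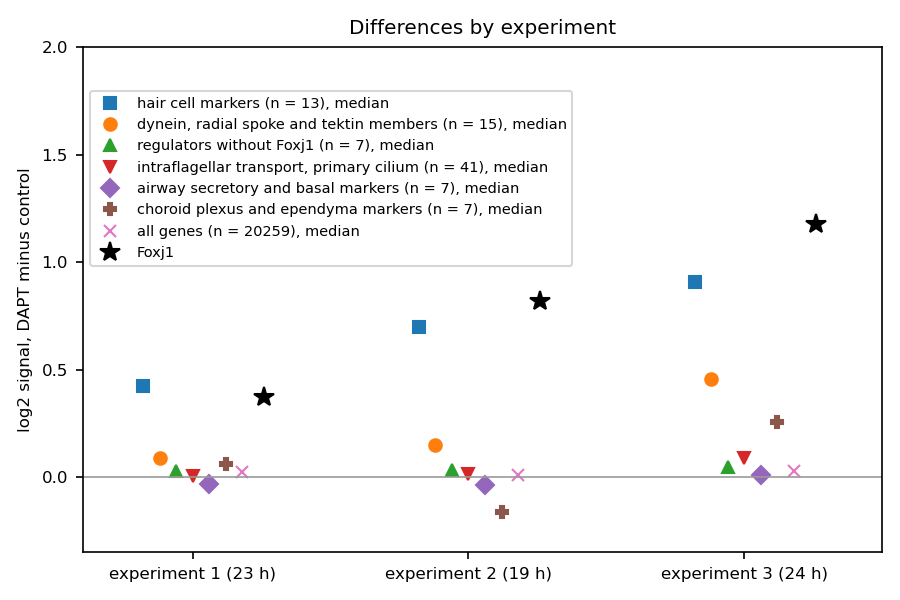
Difference in log2 signal between DAPT and control in each experiment, as the value of *Foxj1* (stars) and the median over gene lists (other symbols), with culture times in hours. The HC markers (0.42, 0.70 and 0.91), *Foxj1* and the 15 dynein, radial spoke and tektin members all lie highest in experiment 3. So do the choroid plexus and ependyma markers (0.06, −0.16 and 0.26) and the intraflagellar transport genes (0.01, 0.02 and 0.09). The regulators without *Foxj1* (0.03, 0.03 and 0.05) and all genes (0.02, 0.01 and 0.03) were also highest in experiment 3. The airway secretory and basal markers (−0.03, −0.04 and 0.01) were too, and stay near 0.

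HC markers were measured on the same arrays. All 13 measured HC genes were higher with DAPT in each experiment, beside 19.1% of all genes. All 13 had an unadjusted p under 0.05, beside 5.27% of all genes on the higher side. Their differences ran from 0.25 for *Myo6* to 1.18 for *Atoh1*, the factor that HC formation requires, and the median was 0.42, 0.70 and 0.91 in experiments 1, 2 and 3. Of 10 markers of supporting and pro-sensory cells 9 had an unadjusted p under 0.05 and were lower, beside 2.59% of all genes. Genes of both lists, among them *Atoh1*, *Pou4f3*, *Sox2* and *Jag1*, stand in the study's own lists from these arrays. Their direction is therefore not independent evidence. Other ciliated tissues were looked for through markers of the cells that accompany their ciliated cells. Of 7 secretory and basal markers of airway-type epithelium, among them *Scgb1a1*, *Krt5* and *Trp63*, 0 had an unadjusted p under 0.05, the mean signals lay between 4.84 and 6.93, and the largest difference in either direction was −0.16. One of them, *Ltf*, was higher in experiment 3, from 6.50 to 7.06. In all 3 experiments 0 of the 7 were higher and 2 were lower, beside 19.1% and 10.5% of all genes. For 2 of the 7 every DAPT array lay below every control array, beside 477 of all 20259 genes. Of 7 choroid plexus and ependyma markers 1, *Clic6*, was higher, by 0.24 (unadjusted p = 0.0469 from limma), and the median over the 7 was 0.06, −0.16 and 0.26 in the 3 experiments. Their mean signals lay between 6.88 and 10.72, with *Ttr* at 7.52 and *Otx2*, which the cochlear roof also expresses, at 10.72. Among 8 neuronal, 8 mesenchymal, 4 glial and 4 endothelial and blood markers, *Kdr* of endothelium was higher, by 0.24, while *Postn* of mesenchyme and *Fabp7*, a glial gene that cochlear supporting cells also express, were lower, and the others had p above the level. Of the 9 genes of the cochlear epithelium *Otoa* was higher, by 0.27, and *Krt8* was lower, with a difference of −0.28. The median over these 9 was 0.11, 0.03 and −0.18 in experiments 1, 2 and 3. In experiment 3, 2 of the 9 were higher, beside 56.0% of all genes. The part of HC number, and of these other cells, in the *Foxj1* and axonemal differences was not tested.

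The wider axoneme was read from 4 further lists of genes, with 73 genes in all. Of these, 15 had an unadjusted p under 0.05, all 15 higher, beside 5.27% of all genes, and 28 were higher and 3 lower in all 3 experiments, beside 19.1% and 10.5% of all genes. The median difference was 0.11, close to that of the members. Of 16 other dynein arm genes 2 were higher, *Wdr63*, of an inner arm, by 0.40 (standard error 0.10) and the docking gene *Ttc25* by 0.23 (standard error 0.09). In experiment 3 alone 15 of these 16 genes were higher, with a median of 0.44, beside 56.0% of all genes. In experiment 1 only 6 were, beside 55.3% of all genes. Of 9 other dynein assembly genes 0 were higher at that level.

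Of 11 other radial spoke and nexin genes 4 had an unadjusted p under 0.05. They were *Iqub* at 0.57, *Nme5* at 0.42, and the nexin-dynein regulatory complex genes *Drc1* at 0.33 and *Drc3* at 0.24, all higher. Of 37 other genes of the central pair and axoneme 9 were higher at an unadjusted p under 0.05, beside 5.27% of all genes, and 18 were higher in all 3 experiments, beside 19.1%. *Enkur*, a calmodulin-binding gene of the axoneme, had log2 signals of 6.13, 5.21 and 5.91 in control and 6.40, 5.85 and 6.81 in DAPT pools, and a difference of 0.60 (standard error 0.13). *Meig1*, known from spermatogenesis in mouse, had 0.41 (standard error 0.12). *Cfap126*, which helps to place basal bodies in mouse lung and inner ear, had 7.31, 7.04 and 7.22 in control and 7.71, 7.29 and 7.76 in DAPT pools, groups that overlapped, with a difference of 0.40 (standard error 0.09). The others were *Ak8* at 0.28, *Cfap44* at 0.26, *Ccdc96* at 0.23, *Ttc29* at 0.23 and *Fam166c* at 0.22, besides 1 with a smaller difference.

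**Figure D4:**
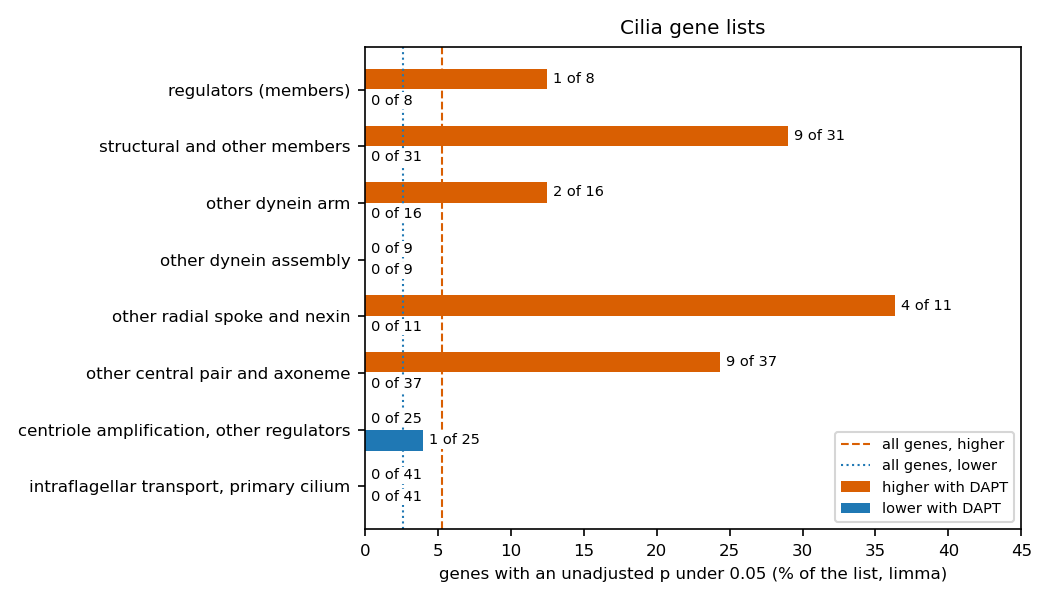
Share of genes in each cilia list with an unadjusted p under 0.05 in limma, higher (orange) or lower (blue) with DAPT, with counts beside the bars and the shares over all genes (5.27% and 2.59%) as dashed and dotted lines. The bars of the axonemal lists reach 12.5% to 36.4%, apart from dynein assembly at 0 of 9, and the lists of intraflagellar transport and of centriole amplification have no higher gene.

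Lists that stand for cilia in general, or for making many cilia, held no gene that was higher at an unadjusted p under 0.05. Of 41 genes of intraflagellar transport and the primary cilium 0 had an unadjusted p under 0.05 in either direction, with differences from −0.27 to 0.20 and a median of 0.03, and 10 were higher in all 3 experiments, which was 24.4% beside 19.1% of all genes. These genes build the cilia of nearly every cell, and 36 of the 41 had mean signals above the median of all genes. A further list of 25 genes held genes of multiciliation and centriole amplification and other transcription factors, among them *Rfx5*, *Rfx6*, *Foxa1* and *Foxa2*. Of these 25, 0 were higher and 1 was lower at that level, beside 5.27% and 2.59% of all genes. The lower one was *Stil*, a centriole duplication gene, with a difference of −0.21. *Gmnc*, which starts the multiciliation program, had 0.05 (standard error 0.07), *Deup1*, of the deuterosome in which centrioles are amplified, had 0.03 (standard error 0.09), and *Myb* had 0.02 (standard error 0.07). A p that misses the threshold does not show that these genes did not differ.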

How the data were processed

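Cochlear RNA of 6 pools of explants, 3 treated with DAPT and 3 with DMSO in the same 3 experiments, was hybridized to 1 array each. The deposited values were log2 signals per transcript cluster, which the authors made with RMA background correction, quantile normalization and summarization in Partek, and the submitters' notes name the mouse build mm9. RMA shrinks differences of dim probes, and quantile normalization holds the overall distribution equal between arrays, so differences are relative to the other genes on the array. No scanner files were used here. The number of arrays limits the precision.

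Of 115830 clusters, 25539 named 1 gene, 2300 several and 87991 none. Symbols were updated through the gene identifier with the RefSeq table of GRCm38.p6 for 24941 of them. This gave 20259 genes, 3109 with more than 1 cluster, each taken at the cluster with the highest mean. No column was left out for want of a sample.

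Groups and experiment numbers came from the labels. Differences were tested two-sided with limma 3.58.1 in R 4.3.3 (lmFit and eBayes), with a term for the experiment, and p-values were adjusted by the Benjamini-Hochberg method over all 20259 genes. The experiment numbers pair the arrays: deviations of control and DAPT arrays from their group means correlated at 0.556, 0.434 and 0.513 within experiments 1, 2 and 3 and at most at 0.00925 between them. Deviations within a group sum to 0, so the values between experiments are not independent of those within them. Correlations of arrays within a group ran from 0.978 to 0.991. The scripts were tested on simulated data. Medians, intervals and counts were computed in Python 3.11.15 with pandas 2.3.3.

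The members, the 6 lists of other cilia genes and the 9 lists of cell type markers were chosen with earlier results of these data known. Signals on every array are given for *Foxj1*, the other regulators, the members with an unadjusted p under 0.05 and the 5 brightest of the rest, and for some others. Of each wider list the genes with an unadjusted p under 0.05 are named, at most 8 by size of difference. Other members given on every array, and the other list and marker genes named, were chosen after their values were seen. Alternatives were a fit without the experiment term, plain comparisons without pooled variances, another normalization or centring, filters on signal, the mean over clusters, a trended and robust prior, and leaving out each experiment. Promoters were read from the RefSeq table of GRCm38.p6.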

Additional observations from a re-analysis of the deposited data

How the results depend on the processing

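The number of arrays limits what can be called: with 3 pairs of pools no member passed the adjusted threshold. The calls named for members rest on unadjusted p-values, and 30 of the 39 members had signals below the median of all genes. In the fit with no replicate block, that is without pairing the arrays of an experiment, 6 members were higher at an unadjusted p under 0.05. Over all genes 394 (1.94%) were higher and 199 lower in that fit. *Dnali1*, *Rsph4a*, *Armc4* and *Cfap52* were no longer among the members called. A plain one-way comparison of the groups, the kind of model that the study's text names, left 1 of 39 members, *Foxj1*. *Fam183b*, which stands in the study's list, had an unadjusted p of 0.105 in this one-way comparison. Over all genes the one-way comparison gave 490 genes (2.42%) higher and 215 lower, so the members' share was near that of all genes. A plain paired comparison left 2 of 39, *Tekt2* and *Fam183b*, with 911 genes (4.5%) higher over all genes, so the members' share was near that of all genes. Median centring kept all but *Dnali1*, and quantile normalization applied again, the mean over clusters and the trended and robust prior kept all 10 members.

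The number of genes with an adjusted p under 0.05 went from 0 to 17 among genes with a mean signal above the 25th percentile, 26 above the 50th, 6 with the mean over clusters and 6 with the trended and robust prior, in each case with 0 members among them. The filter at the 25th percentile tested 29 members, of which 8 were higher at an unadjusted p under 0.05, beside 5.23% of all genes tested. It left out *Armc4* and *Fam183b*. The filter at the 50th percentile tested 9 members, of which 5 were higher at that level and 6 in all 3 experiments, with a median difference of 0.3173. Over all genes it tested, 471 (4.65%) were higher and 333 lower at that level.

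Leaving out each experiment in turn moved the count of members from 8 to 15, the median difference of the members from 0.0586 to 0.2240, the genes higher from 707 to 1359 and the genes lower from 364 to 946, with the lowest median and member count without experiment 3 and the highest counts without experiment 1. *Dnali1* and *Armc4* were lost without experiment 2 as without experiment 3, the latter of which also lost *Ccdc40*, and none of the 10 was lost without experiment 1. Counts over all 3 experiments have no value when 1 is left out. The differences of 14 members, none of them among the 10, changed sign in this way and ran from −0.1288 to 0.0178 for *Rfx3*, −0.3000 to 0.4718 for *Rfx4*, −0.0429 to 0.0224 for *Mcidas*, −0.0198 to 0.0297 for *Foxn4*, −0.0027 to 0.0999 for *Dnah2*, −0.2152 to 0.0474 for *Tekt3*, −0.0424 to 0.1063 for *Spag6*, −0.1240 to 0.0591 for *Spag17*, −0.0158 to 0.1035 for *Rsph9*, −0.0042 to 0.0580 for *Ccdc39*, −0.1666 to 0.0549 for *Ccdc113*, −0.0268 to 0.1342 for *Ccdc114*, −0.0329 to 0.2508 for *Lrrc6* and −0.1255 to 0.0494 for *Dnaaf1*. The mean over clusters turned the sign for *Rfx4* (0.0169) and *Dnaic2* (−0.0681), and quantile normalization applied again for *Ccdc39* (−0.0051). Every other member kept its direction under every alternative run.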

Other observations

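Several members have a second cluster on the array, which was not used for the values above. For *Fam183b* the dimmer cluster was also higher with DAPT, by 0.42 (standard error 0.14, unadjusted p = 0.034 from limma over all 25539 clusters with 1 gene). In *Ccdc114* the brighter cluster differed by 0.04 and the dimmer one by 0.29 (standard error 0.09), higher in each experiment. *Hydin* showed 0.19 in its listed cluster and 0.32 in the other, and its listed cluster was lower with DAPT in experiment 3, while the other went from 6.54 to 7.15 there. The other clusters of *Dnah6* had 0.27 and 0.20, that of *Dnah9* had 0.26, and those of *Dnah2* ran from −0.05 to 0.13. *Dnaic2* is the member whose clusters differ most, with 0.22 and −0.35, and its dimmer cluster had a control signal of 7.85 in experiment 1 against 7.29 and 7.05 in the other controls.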
